A study of Mus musculus with 13 samples.

Results

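The myoblasts with the dICR/dICR genotype were compared with wild-type myoblasts across all genes of the count table. This comparison takes 6 of the 13 libraries of the series: 2 dICR/dICR myoblasts and 4 wild-type myoblasts, numbered as in the labels. The remaining libraries are myotubes, the fused and contractile cells that myoblasts form, and 5 of them (dICR/dICR 1 and 2, wild type 1 to 3) are used at the end as a comparison of the same genotypes in another cell state. All cells were primary cultures from hind limb muscle of pups of 2 to 3 days on a mixed strain background. Myoblasts of both genotypes were kept in F10 medium with 10% calf serum and fibroblast growth factor. For myotubes, such cells were moved to DMEM with 1% horse serum and differentiated over 24 h. The dICR allele lacks the imprinting control region that lies upstream of H19, and dICR/dICR cells carry it on both chromosomes, whereas wild-type cells have no deletion. Only total RNA of an integrity number above 9 was used, its ribosomal RNA was removed, and sequencing was done on an Illumina HiSeq or a SOLiD instrument. The sources used here do not say which library went to which instrument.

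Imprinted genes are read from the copy of only one parent. At the H19-Igf2 locus of distal chromosome 7, the control region is unmethylated on the maternal chromosome, where it binds the insulator protein CTCF, keeps shared enhancers from Igf2 and allows transcription of the noncoding RNA H19. On the paternal chromosome the region is methylated, H19 is silent and Igf2, a growth factor that muscle cells make and respond to, is read. A neighbouring domain, ruled by another control region and the noncoding RNA Kcnq1ot1, holds Cdkn1c, an inhibitor of cyclin-dependent kinases.

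The 6 myoblast libraries differed in depth. Total counts were 54.54 and 51.67 M (mega) counts in wild-type myoblasts 1 and 2, called the high-count pair here, and 6.95 and 5.55 M in wild-type myoblasts 3 and 4, the low-count pair. The dICR/dICR myoblasts had 10.91 and 6.33 M. Between 17160 and 19366 genes had at least 1 count in these libraries. Small nucleolar RNA genes held 0.0424% to 0.0491% of counts in the high-count pair, 2.81% to 3.49% in the low-count pair and 5.91% to 7.18% in the dICR/dICR myoblasts. Genes for cytosolic ribosomal proteins took 5.40% to 5.96%, 1.49% to 1.61% and 1.54% to 1.77% of counts in the same order. The Y-linked helicase gene Ddx3y stood at 33.4 and 27.6 CPM (counts scaled to a common library total) in the high-count pair, 0.247 and 0.153 CPM in the low-count pair and 14.5 and 63.1 CPM in the dICR/dICR myoblasts. The X-inactivation RNA Xist had 98.1 and 106 CPM, 220 and 303 CPM, and 428 and 57.5 CPM in that order. The wild-type pairs differed from each other in 3649 of 16537 genes tested (22.1%), so the results below name the pair they are against. Both dICR/dICR myoblasts have low total counts, so against the high-count pair genotype and set of libraries cannot be told apart. The labels give no sex. Of 6 tested sex-linked genes 4 were called higher and 0 lower against the low-count pair (median 6.74) and 1 higher against the high-count pair, and sex and genotype cannot be told apart against the low-count pair. The labels do not say whether replicates came from separate animals or cultures, so p-values measure only the spread between these libraries. In addition, a lower level in bulk RNA can stand for fewer cells of a type or for less RNA per cell, which cannot be told apart here.

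H19, the noncoding RNA next to the deleted region, was checked first. It stood at 2607 and 2345 CPM in the high-count pair, 18489 and 17485 CPM in the low-count pair and 53.8 and 71.5 CPM in the dICR/dICR myoblasts. Both dICR/dICR libraries lay below all 4 wild-type libraries. The log2 fold change, given throughout as dICR/dICR minus wild type with its standard error (SE), was -8.17 ± 0.52 against the low-count pair (adjusted p = 5.35e-05, edgeR quasi-likelihood test with Benjamini-Hochberg adjustment) and -5.31 ± 0.46 against the high-count pair (adjusted p = 9.78e-06). Over the 4 wild-type myoblasts it was -7.35 ± 1.13, with an adjusted p of 0.0562 that missed the threshold of 0.05.

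The first exon of H19 also holds the hairpin of microRNA miR-675, whose mature forms are shown because they leave the same transcript. In RefSeq (GRCm38.p6, minus strand) they lie at chr7:142577112-142577133 (the 5p arm) and chr7:142577078-142577099 (the 3p arm), and capitals mark the seed, bases 2 to 8 of the mature RNA.
mmu-miR-675-5p: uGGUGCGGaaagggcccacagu
mmu-miR-675-3p: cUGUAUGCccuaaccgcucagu
The arms have different seeds. The gene entry Mir675 had 0 counts in all 6 myoblast libraries, so the libraries carry no value for it beside that of H19.

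Igf2 did not follow H19 in a single direction. Its level was 188 and 317 CPM in the high-count pair, 1138 and 1461 CPM in the low-count pair and 1571 and 579 CPM in the dICR/dICR myoblasts. The dICR/dICR libraries therefore lay above the high-count pair, and the low-count pair lay between them. Igf2 was higher by 2.09 ± 0.58 log2 units against the high-count pair (adjusted p = 0.0325), whereas against the low-count pair the difference was -0.27 ± 0.56 (adjusted p = 0.834). Over all 4 wild-type myoblasts it was 0.47 (adjusted p = 0.812). The difference from the low-count pair turned with the library used, at -1.17 with dICR/dICR myoblast 1 left out and 0.28 with dICR/dICR myoblast 2 left out. Igf2as, the antisense transcript of the locus, stood at 0.634 and 0.758 CPM, 7.89 and 8.12 CPM, and 13.4 and 10.6 CPM in the same order. Both of its dICR/dICR values were above every wild-type value, by 4.10 log2 units against the high-count pair (adjusted p = 2.63e-05) and by 0.59 ± 0.36 against the low-count pair (adjusted p = 0.376). The strand setting of the counting is not given, so reads of Igf2 and Igf2as cannot be told apart.

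Of the 14 listed genes of the H19-Igf2 domain 10 were tested, and 4 were called lower against the low-count pair: H19, Tnnt3, Tnni2 and Mrpl23. Tnnt3, which encodes troponin T of fast muscle, had 179 and 179 CPM in the high-count pair, 858 and 841 CPM in the low-count pair and 171 and 115 CPM in the dICR/dICR myoblasts. That is a change of -2.57 ± 0.31 log2 units against the low-count pair (adjusted p = 0.00401) and a difference of -0.32 against the high-count pair (adjusted p = 0.499). Tnni2, troponin I of fast muscle, differed by -2.66 ± 0.27 against the low-count pair (adjusted p = 0.00151) and by -0.11 against the high-count pair (adjusted p = 0.824), whose values of 14.9 and 14.5 CPM overlapped those of the dICR/dICR libraries, 15.1 and 12.1 CPM. Mrpl23, a protein of the mitochondrial ribosome, stood at 34.1 and 38.2 CPM, 2.10 and 2.30 CPM, and 0.782 and 0.782 CPM in the 3 pairs. The other 6 tested genes differed from the low-count pair by -1.26 to 0.59 log2 units without passing the test.

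Cdkn1c was the only gene called against the low-count pair of 15 tested in the Kcnq1ot1 domain (16 listed), and against the high-count pair 2 were called lower, Cdkn1c and the transporter gene Slc22a18 (3.43 and 5.64 CPM in the high-count pair, 0.156 and 0 CPM in dICR/dICR and 0 in the low-count pair, adjusted p = 0.012). This inhibitor, which holds back cell division as myoblasts differentiate, had 99.1 and 97.4 CPM in the high-count pair, 43.4 and 53.5 CPM in the low-count pair and 4.14 and 2.35 CPM in the dICR/dICR myoblasts. The groups did not overlap. The change was -3.86 ± 0.66 against the low-count pair (adjusted p = 0.00951) and -4.88 against the high-count pair (adjusted p = 0.000481). Kcnq1ot1 itself had 45.7 and 32.9 CPM, 60.8 and 88.2 CPM, and 142 and 56.2 CPM, so the dICR/dICR libraries stood on both sides of the low-count pair, and it did not pass the test (0.41, adjusted p = 0.771). Reads of Kcnq1ot1 and of the Kcnq1 gene it overlaps cannot be told apart without a known strand setting.

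**Figure D1:**
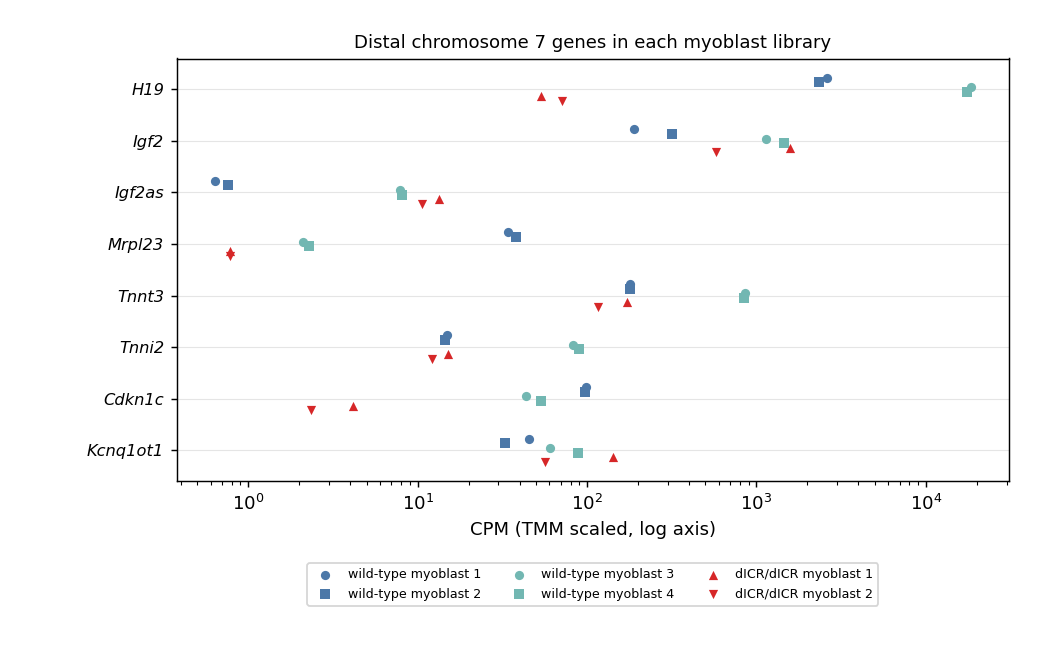
Levels of genes of the H19-Igf2 and Kcnq1ot1 domains in the 6 myoblast libraries, in CPM on a log axis; each point is 1 library, coloured by genotype and wild-type pair. H19 falls from 2345 or more CPM in wild type to 53.8 and 71.5 CPM, Cdkn1c lies below all wild-type libraries, and the low-count wild-type values of Igf2 lie between the dICR/dICR values.

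Across the genome, the number of called genes depended on which wild-type libraries were used. Over all 4 wild-type myoblasts 5 of 16537 genes passed (0.0302%), 3 higher (0.0181%) and 2 lower (0.0121%), and 2009 had an unadjusted p under 0.05 (12.1%). Against the low-count pair 868 genes passed (5.25%), 321 higher (1.94%) and 547 lower (3.31%), and against the high-count pair 2359 passed (14.3%), 912 higher (5.51%) and 1447 lower (8.75%). With totals scaled by library size alone, the counts against the high-count pair were 1628 higher and 1002 lower. Both dICR/dICR libraries lay above all 4 wild-type myoblasts for 2347 genes (14.2%) and below them for 2368 (14.3%), 4715 in all (28.5%).

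Genes that were called against the low-count pair and also lay outside the range of all 4 wild-type myoblasts numbered 524 (3.17% of genes tested), 187 higher (1.13%) and 337 lower (2.04%), or 252 and 266 with library size alone. They are called the out-of-range genes below. This count was 22 and 35 when wild-type myoblast 3 or 4 was left out, 303 and 300 when wild-type myoblast 1 or 2 was, and 273 and 50 when dICR/dICR myoblast 1 or 2 was. It was 872 and 903 without wild-type myotube 1 or 2, which share the estimate of the spread. The count of 868 moved alike, to 28, 40, 451, 446, 337, 58, 1531 and 1658 in the same order. The count of 2359 against the high-count pair was 949 and 964 with wild-type myoblast 1 or 2 left out, and 1363 and 1080 with dICR/dICR myoblast 1 or 2 left out.

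The 5 genes called over all libraries were Igsf5, Mecom, Urb1, Mtus1 and Akip1, each with an adjusted p of 0.0459. Mecom, a zinc finger transcription factor, had 13.2 and 11.5 CPM in the high-count pair, 12.8 and 11.9 CPM in the low-count pair, and 51.8 and 40.3 CPM in the dICR/dICR myoblasts. Its wild-type libraries lay close together and the change was 1.89 ± 0.25. Urb1, a factor of large ribosomal subunit assembly, rose from 35.6 to 41.8 CPM in the 4 wild-type myoblasts to 84.2 and 109 CPM, by 1.32 ± 0.19. Igsf5, a junctional adhesion protein, stood at 0.233 to 0.613 CPM in wild type and at 5.78 and 22.5 CPM in dICR/dICR myoblasts, by 5.33 ± 0.67. Of the genes that fell, Mtus1, which encodes a microtubule-associated protein, had 16.4, 13.4, 15.9 and 14.2 CPM in wild-type myoblasts 1 to 4 and 1.25 and 1.17 CPM in dICR/dICR, a change of -3.62 ± 0.51. Akip1, which binds the A kinase, had 14.6 and 15.9 CPM in the high-count pair, 11.96 and 13.02 CPM in the low-count pair, and 2.11 and 3.39 CPM, a change of -2.35 ± 0.33. For none of the 5 did the groups overlap. When any of wild-type myoblasts 1 to 4, dICR/dICR myoblast 2, wild-type myotubes 3 and 4 or dICR/dICR myotubes 1 and 2 was left out, 0 genes passed over all libraries in edgeR, and 855 to 2040 then had an unadjusted p under 0.05. Without dICR/dICR myoblast 1 or wild-type myotube 5, 1 and 2 genes passed.

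Among the out-of-range genes with a mean of at least 5 CPM in the higher group, the largest falls after H19 were in Rprl3, Hspb8, Mgl2, Ptgis and Myo18b. Rprl3, an RNA gene related to the RNA of ribonuclease P, stood at 616 and 716 CPM in the high-count pair, 80.4 and 140 CPM in the low-count pair, and 0.156 and 0.912 CPM in the dICR/dICR myoblasts. It changed by -7.89 ± 0.80 against the low-count pair (adjusted p = 0.00151) and by -10.49 against the high-count pair, and as a gene with near-identical copies its counts are uncertain. Hspb8, a small heat shock protein that works in the chaperone-assisted turnover of sarcomere proteins, had 124 and 123 CPM, 283 and 260 CPM, and 5.39 and 3.65 CPM in the 3 pairs. It fell by 5.89 log2 units against the low-count pair (SE 0.95, adjusted p = 0.00867) and by 4.75 against the high-count pair (adjusted p = 0.00467). Ptgis, prostacyclin synthase, had 12.6 and 15.8 CPM, 77.1 and 59.4 CPM, and 1.80 and 0.912 CPM, a change of -5.59 ± 0.78 against the low-count pair.

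Several other strong falls were in genes of muscle structure. Myo18b, an unconventional myosin needed for sarcomere assembly, had 16.2 and 12.4 CPM in the high-count pair, 40.8 and 39.4 CPM in the low-count pair and 1.02 and 1.04 CPM in dICR/dICR myoblasts. Ankrd2, a stretch-responsive ankyrin repeat protein of the sarcomere and nucleus, had 34.4 and 30.3 CPM, 137 and 145 CPM, and 8.21 and 5.21 CPM. Myh1, the fast IIx myosin heavy chain, had 95.9 and 97.3 CPM, 336 and 270 CPM, and 19.5 and 17.7 CPM. All 3 lay below every wild-type library and were called against both pairs, with changes against the low-count pair of -5.28 ± 1.10, -4.37 ± 0.56 and -4.02 ± 0.62 and against the high-count pair of -3.79, -2.25 and -2.38. Bex1, a small protein of the nervous system and regenerating muscle, changed by -4.64 ± 0.84, and Gpnmb, a membrane glycoprotein, by -3.91 ± 0.64 against the low-count pair, and by -3.02 and -2.07 against the high-count pair (adjusted p = 0.029 and 0.0392). Hoxb2, a homeobox transcription factor, had 3 counts over both dICR/dICR myoblasts against 52 in the low-count pair, a ratio of 24.2 after scaling with a 95% counting interval of 7.85 to 121.

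For some of the falling genes the gap lay mainly with the low-count pair. Mgl2, a lectin best known from macrophages, had 1.17 and 1.05 CPM in the high-count pair, 19.9 and 23.9 CPM in the low-count pair and 0.547 and 0.261 CPM in dICR/dICR myoblasts. Its change was -5.67 ± 0.90 against the low-count pair (adjusted p = 0.00848) and -1.38 against the high-count pair (adjusted p = 0.313). Dcaf12l1, a WD repeat protein, had 1.31 and 1.54 CPM, 21.6 and 19.1 CPM, and 0.938 and 0.782 CPM. Sema3d, a secreted guidance protein, and Tpd52l1, a coiled-coil protein, changed by -4.02 ± 0.45 and -4.11 ± 0.56 against the low-count pair and differed by -1.02 and -1.52 from the high-count pair, where neither passed (adjusted p = 0.125 and 0.0781).

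Tfpi, the inhibitor of tissue factor in blood clotting, had 8.97 and 9.70 CPM in the high-count pair, 4.44 and 4.14 CPM in the low-count pair and 72.7 and 75.3 CPM in the dICR/dICR myoblasts. Here the dICR/dICR libraries were close to each other and far above all wild-type libraries, by 4.11 ± 0.72 against the low-count pair (adjusted p = 0.0107) and 2.99 against the high-count pair (adjusted p = 0.0105). Ankrd33b, an ankyrin repeat protein, had 7.16 and 7.35 CPM, 3.08 and 2.14 CPM, and 33.5 and 64.1 CPM, a rise of 4.21 ± 0.54 against the low-count pair (adjusted p = 0.00401) and 2.75 against the high-count pair. Sigirr, an inhibitory receptor of the interleukin-1 receptor family, had 10.5 and 10.7 CPM, 1.36 and 1.07 CPM, and 29.5 and 57.2 CPM, with a rise of 5.14 ± 0.68 (adjusted p = 0.00461) and of 2.03 against the high-count pair (adjusted p = 0.0295). Ccbe1, a secreted protein of lymphatic vessel growth, rose by 5.27 ± 0.88 and 2.57 against the low-count and high-count pair.

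Adh7, an alcohol dehydrogenase that acts on retinol, had 2 counts over the low-count pair against 272 counts in the dICR/dICR myoblasts, a ratio of 97.2 after scaling with a 95% counting interval of 26.7 to 807. Such intervals cover counting error only. Lrp2, the endocytic receptor megalin, had 30.3 and 22.6 CPM in the high-count pair, 0.617 and 1.23 CPM in the low-count pair and 37.1 and 34.4 CPM in dICR/dICR myoblasts, so its rise of 5.30 ± 0.67 was against the low-count pair, and it differed by 0.43 from the high-count pair (adjusted p = 0.618).

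The dICR/dICR libraries differed from each other in several of the rising genes, and library 2 was the higher one. Arap3, a regulator of small GTPases, had 3.13 and 29.6 CPM there against 0.460 to 2.07 CPM in wild type. Trim47, a ubiquitin ligase, had 10.2 and 36.6 CPM against 0.740 to 3.42 CPM, and the fatty acid enzyme Acsbg1 had 23.6 and 64.8 CPM against 1.53 to 20.5 CPM. Sgk2, a kinase, stood at 4.14 and 10.8 CPM against 0.153 to 0.972 CPM. Slc14a1, a urea transporter, had 7.90 and 15.6 CPM against 0.613 to 3.36 CPM, and AF357399 had 5.63 and 15.2 CPM against 0.493 to 1.31 CPM. Their rises against the low-count pair ran from 4.10 for Slc14a1 to 4.73 for Arap3.

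**Figure D2:**
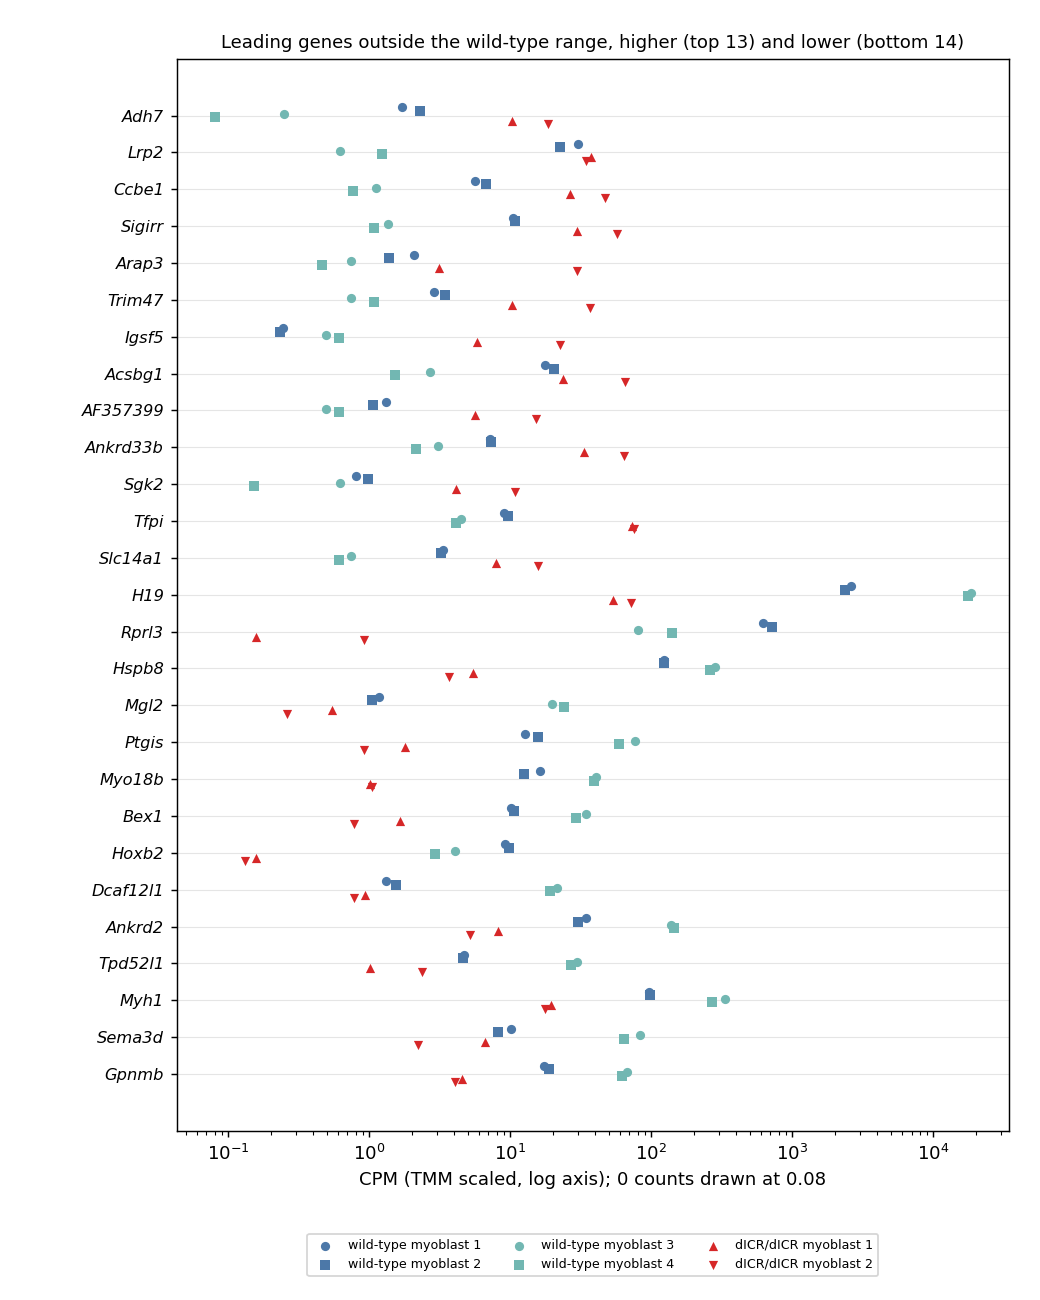
Levels of 13 higher and 14 lower out-of-range genes with large changes, in CPM on a log axis, 1 point per myoblast library. The lower genes are led by H19 and Rprl3 and Tfpi stands at 72.7 and 75.3 CPM against 4.14 to 9.70 CPM in wild type. That no dICR/dICR point overlaps the wild-type points follows from the rule that chose the genes.

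Of the 524 out-of-range genes 16 were called against the low-count pair in each of the 19 alternatives run, among them every fit with 1 library left out, and all 16 were lower. H19, Rprl3, Sema3d, Tpd52l1 and Tnnt3 are described above. The other 11 are named after their values were seen. Psmc4, an ATPase subunit of the proteasome, had 107 and 100 CPM in the high-count pair, 205 and 188 CPM in the low-count pair and 45.6 and 40.3 CPM in dICR/dICR myoblasts, a change of -2.20 ± 0.21 (adjusted p = 0.00151). Sulf1, which removes sulfate groups from heparan sulfate and so alters growth factor signalling, had 40.7 and 34.03 CPM, 86.0 and 79.2 CPM, and 16.1 and 15.4 CPM, a change of -2.39 ± 0.24. Ptpla, an enzyme of very long chain fatty acid synthesis that muscle needs, had 40.1 and 42.7 CPM, 46.6 and 44.9 CPM, and 15.01 and 14.9 CPM, a change of -1.62 ± 0.19. These 3 were called lower against the high-count pair as well (-1.27, -1.25 and -1.47). For Ptpla both wild-type pairs stood at nearly the same level.

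Further members of these 16 were membrane and adhesion proteins: the tetraspanin Cd82 (-2.25 ± 0.28), the neurexin Nrxn3 (-3.12 ± 0.39) and the protocadherin Pcdhb16 (-2.57 ± 0.32) against the low-count pair. Nrxn3 (-1.28) and Pcdhb16 (-1.31) were also called against the high-count pair and Cd82 was not (-0.29, adjusted p = 0.504). The lysosomal protease gene Ctsf changed by -3.84 ± 0.46 and Cap2, which regulates actin filaments, by -3.28 ± 0.45, while their differences from the high-count pair, -0.58 and -1.10, did not pass (adjusted p = 0.397 and 0.107). The remaining 3 were Pnmal2 (-2.82 ± 0.23), BC002163 (-3.26 ± 0.45) and 2210016F16Rik (-2.27 ± 0.28), all called lower against the high-count pair too (-0.75, -3.62 and -3.91).

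Muscle genes as groups were lower than in the low-count pair and near the level of the high-count pair. Of 64 sarcomere genes 27 were called lower and 0 higher against the low-count pair, with a median log2 difference of -1.85, where all genes tested had a median of 0.01 and 3.31% were called lower. Against the high-count pair the median was 0.07, with 5 called higher and 7 lower, where 5.51% and 8.75% of all genes were. Only 10 of the 64 were both called and below all 4 wild-type libraries. The count of 27 was 2 and 3 when wild-type myoblast 3 or 4 was left out, and 16 and 2 when dICR/dICR myoblast 1 or 2 was, with medians from -2.22 to -1.50 as each myoblast library was left out in turn.

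Single sarcomere genes differed in how they stood to the high-count pair. Myl1, the essential light chain of fast myosin, named here after its values were seen, stood at 285 and 283 CPM in the high-count pair, 337 and 330 CPM in the low-count pair and 91.2 and 48.6 CPM in dICR/dICR myoblasts. It was called lower against both pairs, by -2.25 ± 0.40 (adjusted p = 0.0121) and -2.02 (adjusted p = 0.00592). Acta1, skeletal muscle alpha-actin, likewise chosen after its values were seen, had 697 and 809 CPM, 2744 and 3138 CPM, and 555 and 466 CPM, and changed by -2.53 ± 0.36 against the low-count pair (adjusted p = 0.00522). Against the high-count pair Acta1 differed by -0.56 (adjusted p = 0.298), although both dICR/dICR values were the lowest of the 6.

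Nrap, a scaffold of myofibril assembly, had 66.0 and 57.4 CPM in the high-count pair, 453 and 476 CPM in the low-count pair and 70.0 and 34.1 CPM in dICR/dICR myoblasts, so its change of -3.15 ± 0.62 was against the low-count pair alone and the difference from the high-count pair was -0.24 (adjusted p = 0.823). Capn3, a muscle protease, changed by -3.18 ± 0.68 against the low-count pair and differed by 1.03 from the high-count pair (adjusted p = 0.336). Actn3, the alpha-actinin of fast fibres and named after its values were seen, went in opposite directions against the pairs. It had 17.5 and 19.04 CPM in the high-count pair, 518 and 566 CPM in the low-count pair and 107 and 164 CPM in dICR/dICR myoblasts, a change of -2.0 log2 units (SE 0.43, adjusted p = 0.0254) and a rise of 2.89 ± 0.45 (adjusted p = 0.00114).

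Myogenic differentiation and fusion genes gave a like picture. Of 51 genes 23 were called lower and 1 higher against the low-count pair, where 3.31% and 1.94% of all genes were. The median was -1.56, and 10 of the 23 lay below all wild-type libraries. The median against the high-count pair was 0.01, with 2 called higher and 5 lower, where 5.51% and 8.75% of all genes were. The number called lower was 1 with wild-type myoblast 3 or 4 left out, and 18 and 0 with dICR/dICR myoblast 1 or 2 left out. Sgcd, delta-sarcoglycan of the membrane complex that links muscle fibres to the matrix, had 8.30 and 7.97 CPM in the high-count pair, 9.37 and 7.81 CPM in the low-count pair and 1.95 and 0.391 CPM in dICR/dICR myoblasts. It changed by -2.77 ± 0.64 (adjusted p = 0.0337) and -2.69 against the high-count pair (adjusted p = 0.0149).

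Chrng, the fetal gamma subunit of the acetylcholine receptor, and Xirp2, an actin-binding repeat protein, changed by -2.52 ± 0.42 and -2.46 ± 0.58 against the low-count pair and were not called against the high-count pair (-0.46 and -1.11). Gm7325, the fusion factor also known as myomixer, had 5.97 and 6.82 CPM in the high-count pair, 61.5 and 71.1 CPM in the low-count pair and 13.8 and 8.47 CPM in dICR/dICR myoblasts. The transcription factor gene Myog, named after its values were seen, had 146 and 142 CPM, 1179 and 1196 CPM, and 402 and 151 CPM. For both, the dICR/dICR values lay between the wild-type pairs, and Myog changed by -2.10 against the low-count pair (adjusted p = 0.0333) with a difference of 0.94 from the high-count pair (adjusted p = 0.21).

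Of 30 tested genes of excitation-contraction coupling 1 was called higher and 0 lower against the high-count pair (median 0.38). Of all genes 5.51% were higher and 8.75% lower there. Against the low-count pair, where 3.31% of all genes were lower, 12 of the 30 were called lower and 0 higher (median -1.63). This was 8 without dICR/dICR myoblast 1, and 0 when dICR/dICR myoblast 2 or wild-type myoblast 3 or 4 was left out. Cacng1, the gamma subunit of the muscle calcium channel, had 21.0 and 25.9 CPM in the high-count pair, 64.4 and 72.5 CPM in the low-count pair and 13.1 and 7.43 CPM in dICR/dICR myoblasts, with a change of -2.72 ± 0.39 (adjusted p = 0.00569) and a difference of -1.17 from the high-count pair (adjusted p = 0.0579). Kcnj2, a potassium channel, and Scn4a, the muscle sodium channel, changed by -3.24 ± 0.82 and -2.53 ± 0.59 and also lay below all wild-type libraries. Neither was called against the high-count pair (-1.02 and -0.50, adjusted p = 0.427 and 0.601). Atp2a1, the calcium pump of the sarcoplasmic reticulum, and Casq2, a calcium store protein, changed by -2.42 ± 0.37 and -2.14 ± 0.46, with dICR/dICR values of 49.0 and 37.7 CPM and of 166 and 64.6 CPM that did not fall below the high-count pair in both libraries.

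**Figure D3:**
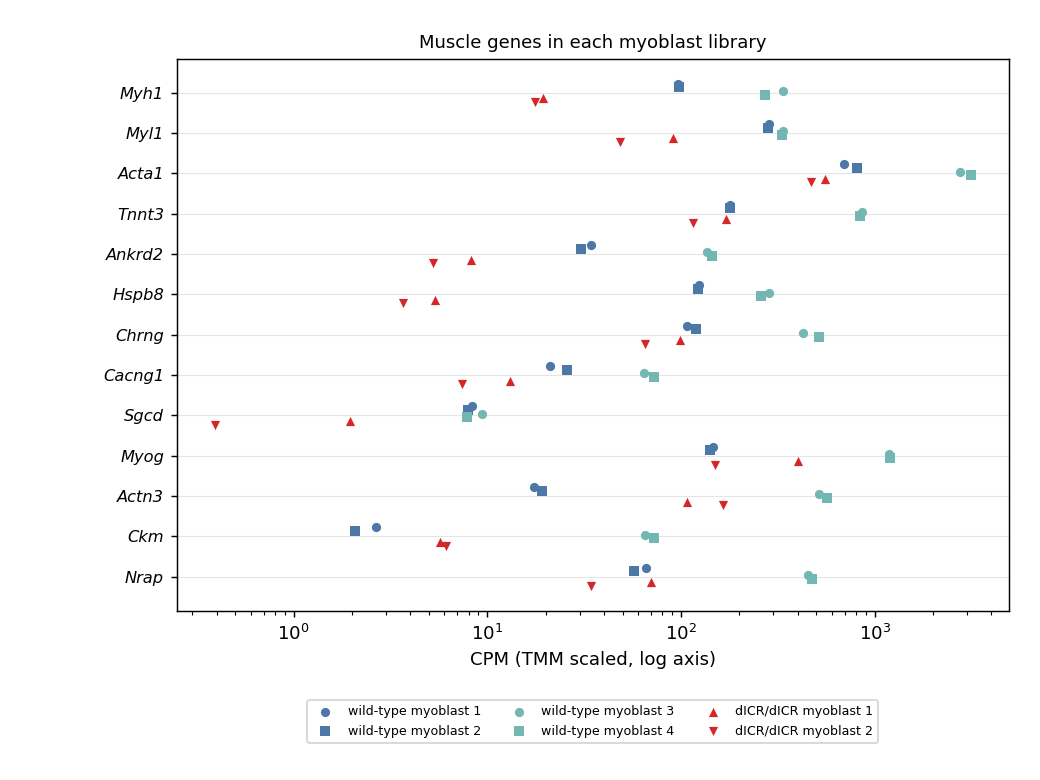
Levels of muscle genes in the 6 myoblast libraries, in CPM on a log axis, 1 point per library. Myl1 and Myh1 lie below both wild-type pairs in dICR/dICR myoblasts, Acta1 falls just below the high-count pair, and Myog and Actn3 lie above the high-count pair and below the low-count pair.

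Promoters of 4 of these muscle genes, the out-of-range genes Ankrd2, Myh1, Myl1 and Acta1, are shown since the genes moved together against the low-count pair. Each is the 250 bases before the annotated start in RefSeq (GRCm38.p6), read 5′ to 3′ on the gene's strand: Acta1 chr8:123894776-123895025 (minus), Ankrd2 chr19:42035777-42036026 (plus), Myh1 chr11:67199852-67200101 (plus) and Myl1 chr1:66945057-66945306 (minus). Capitals mark matches, on either strand, to the E-boxes CAGCTG and CAGGTG that bind MyoD and related factors, to the MEF2 motif or to the CArG box that binds serum response factor.
Acta1: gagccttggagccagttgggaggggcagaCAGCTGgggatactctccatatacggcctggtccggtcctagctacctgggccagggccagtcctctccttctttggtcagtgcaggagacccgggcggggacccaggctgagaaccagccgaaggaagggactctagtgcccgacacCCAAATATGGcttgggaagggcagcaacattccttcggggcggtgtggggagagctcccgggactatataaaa
Ankrd2: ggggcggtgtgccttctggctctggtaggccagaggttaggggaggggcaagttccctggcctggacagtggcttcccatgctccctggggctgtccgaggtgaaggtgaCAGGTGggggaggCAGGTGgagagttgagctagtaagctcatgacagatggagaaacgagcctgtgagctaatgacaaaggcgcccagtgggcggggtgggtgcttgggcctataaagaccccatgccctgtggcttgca
Myh1: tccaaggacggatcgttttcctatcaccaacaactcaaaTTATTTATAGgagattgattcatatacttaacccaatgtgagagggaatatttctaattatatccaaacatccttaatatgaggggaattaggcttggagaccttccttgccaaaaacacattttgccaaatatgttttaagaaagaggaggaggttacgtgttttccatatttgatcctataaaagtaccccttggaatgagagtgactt
Myl1: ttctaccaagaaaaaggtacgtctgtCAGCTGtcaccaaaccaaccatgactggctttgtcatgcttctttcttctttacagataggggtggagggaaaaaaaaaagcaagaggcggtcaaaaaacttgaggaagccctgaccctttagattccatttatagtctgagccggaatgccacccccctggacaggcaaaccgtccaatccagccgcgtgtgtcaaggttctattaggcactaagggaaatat
Acta1 held 1 CAGCTG and 1 CArG box, Ankrd2 2 CAGGTG, Myh1 1 MEF2 motif and Myl1 1 CAGCTG. Of 32851 mouse promoters of the same length, 13% held CAGCTG, 17.2% CAGGTG, 2.92% the MEF2 motif and 1.47% the CArG box. A match is a run of letters and no measure of binding. The promoters were chosen with the values of the genes known.

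Muscle energy metabolism genes moved less as a group, with 10 of 45 called lower and 1 higher against the low-count pair (median -0.65). Against the high-count pair 10 were lower and 1 higher (median -0.07). Of all genes 3.31% were lower and 1.94% higher against the low-count pair. The shares against the high-count pair were 8.75% and 5.51%. The number lower against the low-count pair was 2 with wild-type myoblast 3 or 4 left out, and 2 and 1 with dICR/dICR myoblast 1 or 2 left out. Ucp2, an uncoupling protein of the inner mitochondrial membrane, had 33.3 and 55.3 CPM in the high-count pair, 8.26 and 11.8 CPM in the low-count pair and 0.547 and 1.17 CPM in dICR/dICR myoblasts. It was below every wild-type library and changed by -3.61 ± 0.60 (adjusted p = 0.00873) and -5.76 against the high-count pair. Cox7a1, the muscle form of a cytochrome oxidase subunit, changed by -2.67 ± 0.47 and -2.07 (adjusted p = 0.0118 and 0.0114).

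The muscle enzymes creatine kinase (Ckm), phosphoglycerate mutase 2 (Pgam2) and AMP deaminase (Ampd1) were lower than in the low-count pair, by -3.55 ± 0.48, -2.58 ± 0.33 and -2.24 ± 0.56. Their dICR/dICR values exceeded the high-count pair; Ckm had 5.71 and 6.12 CPM against 2.65 and 2.08 CPM there and 65.4 and 72.9 CPM in the low-count pair. Differences from the high-count pair were 1.32, 0.62 and 0.97, none of them called. Pdk4, which shuts off pyruvate dehydrogenase and was named after its values were seen, had 59.4 and 53.6 CPM, 53.3 and 45.04 CPM, and 25.3 and 21.9 CPM and was called lower against both pairs (-1.06 ± 0.26 and -1.26).

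Nuclear genes of the respiratory chain were called lower in 8 of 75 cases and higher in 0 against the low-count pair (median -0.35). Of all genes 3.31% were lower there. Below all wild-type libraries lay 7 of the 8. With wild-type myoblast 3 or 4 left out 0 were lower, and with dICR/dICR myoblast 1 or 2 left out 2 and 1. Against the high-count pair 27 were lower and 3 higher (median -0.42), where 8.75% and 5.51% of all genes were. Cox6b1, a cytochrome oxidase subunit, had 202 and 193 CPM in the high-count pair, 257 and 244 CPM in the low-count pair and 60.2 and 93.6 CPM in dICR/dICR myoblasts (-1.70 ± 0.28, adjusted p = 0.00867). Ndufa3 of complex I had 50.04 and 45.98 CPM, 41.9 and 44.9 CPM, and 11.2 and 17.7 CPM (-1.59 ± 0.30, adjusted p = 0.0141). In both, the wild-type pairs stood near each other and the dICR/dICR values below them. Cox5b and Atp5g1, a subunit each of cytochrome oxidase and ATP synthase, changed by -1.53 ± 0.26 and -1.31 ± 0.21, and Ndufv3 by -1.28 ± 0.21 with dICR/dICR values above the high-count pair.

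Ribosome biogenesis genes were called higher against the low-count pair in 14 of 60 cases and lower in 0. The median was 0.70, with a positive difference in 57 of 60. Of all genes 1.94% were called higher there. Of the 14, 8 lay above all wild-type libraries. With wild-type myoblast 3 or 4 or dICR/dICR myoblast 2 left out 0 were called higher, and with dICR/dICR myoblast 1 left out 3. Against the high-count pair the median was -0.03, with 1 higher and 6 lower, where 5.51% and 8.75% of all genes were. Wdr36, a factor of small subunit processing, had 179 and 180 CPM in the high-count pair, 118 and 110 CPM in the low-count pair and 214 and 309 CPM in dICR/dICR myoblasts (1.19 ± 0.29, adjusted p = 0.0382). Tcof1, which links transcription and modification of ribosomal RNA, and Utp18 of the small subunit processome rose by 1.57 ± 0.41 and 1.21 ± 0.26, and Npm1, nucleophosmin, by 1.23 ± 0.26. Npm1 had 2081 and 2640 CPM in the high-count pair, 145 and 128 CPM in the low-count pair and 291 and 350 CPM in dICR/dICR myoblasts, and was called lower against the high-count pair (-2.88).

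Genes of ribosomal proteins themselves were mostly lower than in the high-count pair, and so they were in the low-count pair. Their mean log2 CPM was 8.96 and 9.09 in the high-count pair and 6.21 and 6.12 in the low-count pair. In dICR/dICR myoblasts it was 6.11 and 6.24. Of 78 tested, 0 were called in edgeR against the low-count pair and 9 had an unadjusted p under 0.05, as did 22.2% of all genes (median 0.04; Rps14 at 1.21 ± 0.46 and Rps19 at -1.20 ± 0.46 differed most, adjusted p = 0.152 and 0.155), and against the high-count pair 61 were lower and 1 higher (median -3.28). With the 4 low-count myoblast libraries fitted alone 6 were called higher and 1 lower, and with library size alone 1 higher. Genes of small nucleolar RNAs, which guide the modification of ribosomal RNA, were called higher in 21 of 104 tested against the low-count pair. All 21 were out of range. Of all genes 1.94% were called higher and 1.13% were higher and out of range. Against the high-count pair 85 of the 104 were called with the sign of their difference from the low-count pair and 8 with the opposite sign. Snord37, named after its values were seen, had 0.149 and 0.233 CPM in the high-count pair, 141 and 170 CPM in the low-count pair and 1346 and 998 CPM in dICR/dICR myoblasts (2.92 ± 0.46, adjusted p = 0.0082). Snhg1, a host gene of such RNAs also named after its values were seen, had 74.6 and 76.4 CPM, 37.9 and 36.9 CPM, and 158 and 144 CPM (2.01 ± 0.28, adjusted p = 0.00511). The share of small nucleolar RNAs in the libraries, given above, moves with these results, and its part in them was not tested.

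DNA replication and mitosis genes were mostly higher than in the low-count pair without a single call. All 45 replication genes had a positive difference (median 1.20), and so had 52 of 54 mitosis genes (median 1.11). An unadjusted p under 0.05 was found in edgeR for 14 and 0 of them. When the 4 low-count myoblast libraries were fitted alone, 38 replication and 43 mitosis genes were called higher. Against the high-count pair the medians were 0.06 and 0.21. Orc1, a subunit of the origin recognition complex, had 23.0 and 20.5 CPM in the high-count pair, 4.07 and 4.75 CPM in the low-count pair and 17.4 and 20.5 CPM in dICR/dICR myoblasts (2.10 ± 0.78, adjusted p = 0.136). Mybl2, a transcription factor of dividing cells, had 47.7 and 51.1 CPM, 13.6 and 13.3 CPM, and 47.1 and 67.8 CPM (2.09 ± 1.06, adjusted p = 0.274). In both the dICR/dICR values were close to the high-count pair. The mitotic cyclin gene Ccnb1 was at 228 and 218 CPM, 18.5 and 12.6 CPM, and 43.4 and 56.2 CPM, between the wild-type pairs. Replication-dependent histone genes had a median of 1.16 over 60 tested, with 0 called higher and 1 lower, Hist3h2ba (-3.53 ± 0.90, adjusted p = 0.046), which was no longer called with any 1 myoblast library left out. In the 4 low-count libraries alone 27 of 56 tested were called higher and 1 lower.

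Among 35 regulators of the G1 phase, 5 were called lower and 1 higher against the high-count pair (median -0.28). Of all genes 8.75% were lower and 5.51% higher there. Against the low-count pair 4 were lower and 1 higher (median 0.09), where 3.31% and 1.94% of all genes were. None was called when wild-type myoblast 3 or 4 or dICR/dICR myoblast 2 was left out, and 2 were lower when any other myoblast library was. Besides Cdkn1c, those lower against the low-count pair were the growth arrest genes Gadd45g (-1.70 ± 0.33) and Gadd45a (-1.44 ± 0.36) and the cyclin gene Ccnd3 (-1.22 ± 0.30). The kinase gene Cdk2 was higher. Gadd45g, Gadd45a and Ccnd3 were not called against the high-count pair. Their differences there were -0.49, -0.05 and -0.53 (adjusted p = 0.333, 0.941 and 0.259). Cdk2 had 67.6 and 63.7 CPM in the high-count pair, 53.2 and 45.3 CPM in the low-count pair and 107 and 103 CPM in dICR/dICR myoblasts, a rise of 1.09 ± 0.23 (adjusted p = 0.0215) and a difference of 0.68 from the high-count pair (adjusted p = 0.0651). The dICR/dICR values were above all wild-type libraries. Cdkn1a, the p21 inhibitor, chosen after its values were seen, had 283 and 241 CPM, 241 and 318 CPM, and 136 and 46.4 CPM, and with -1.61 ± 0.48 it did not pass the test (adjusted p = 0.0766).

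Of 43 p53 target genes 8 were called lower and 0 higher against the low-count pair (median -0.60), where 3.31% of all genes were lower. Below all wild-type libraries lay 6 of the 8. In the 4 low-count libraries alone 11 of 42 tested were called lower and 4 higher. Against the high-count pair 8 were lower and 0 higher (median -0.75), where 8.75% of all genes were lower. Against the low-count pair the median was -0.14 with dICR/dICR myoblast 2 left out, and -0.64 with wild-type myoblast 3 or 4 left out. It was -1.29 with dICR/dICR myoblast 1 left out, and with wild-type myoblast 1 or 2 left out 2 were called. Perp, a membrane protein of p53-dependent cell death, had 71.7 and 92.1 CPM in the high-count pair, 9.13 and 5.67 CPM in the low-count pair and 1.09 and 0.130 CPM in dICR/dICR myoblasts, changing by -3.43 ± 0.79 and -6.90 (adjusted p = 0.0319 and 0.000162). Bax, which opens the outer mitochondrial membrane in apoptosis, had 119 and 124 CPM, 225 and 211 CPM, and 71.2 and 50.3 CPM (-1.84 ± 0.41, adjusted p = 0.0289). Cxcr7, a scavenger receptor of the chemokine Cxcl12, changed by -1.80 ± 0.43 and -2.46 against the low-count and high-count pair. The phosphatase-like gene Ptprv and the arrest gene Rprm changed by -3.38 ± 0.53 and -2.58 ± 0.64 against the low-count pair.

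**Figure D4:**
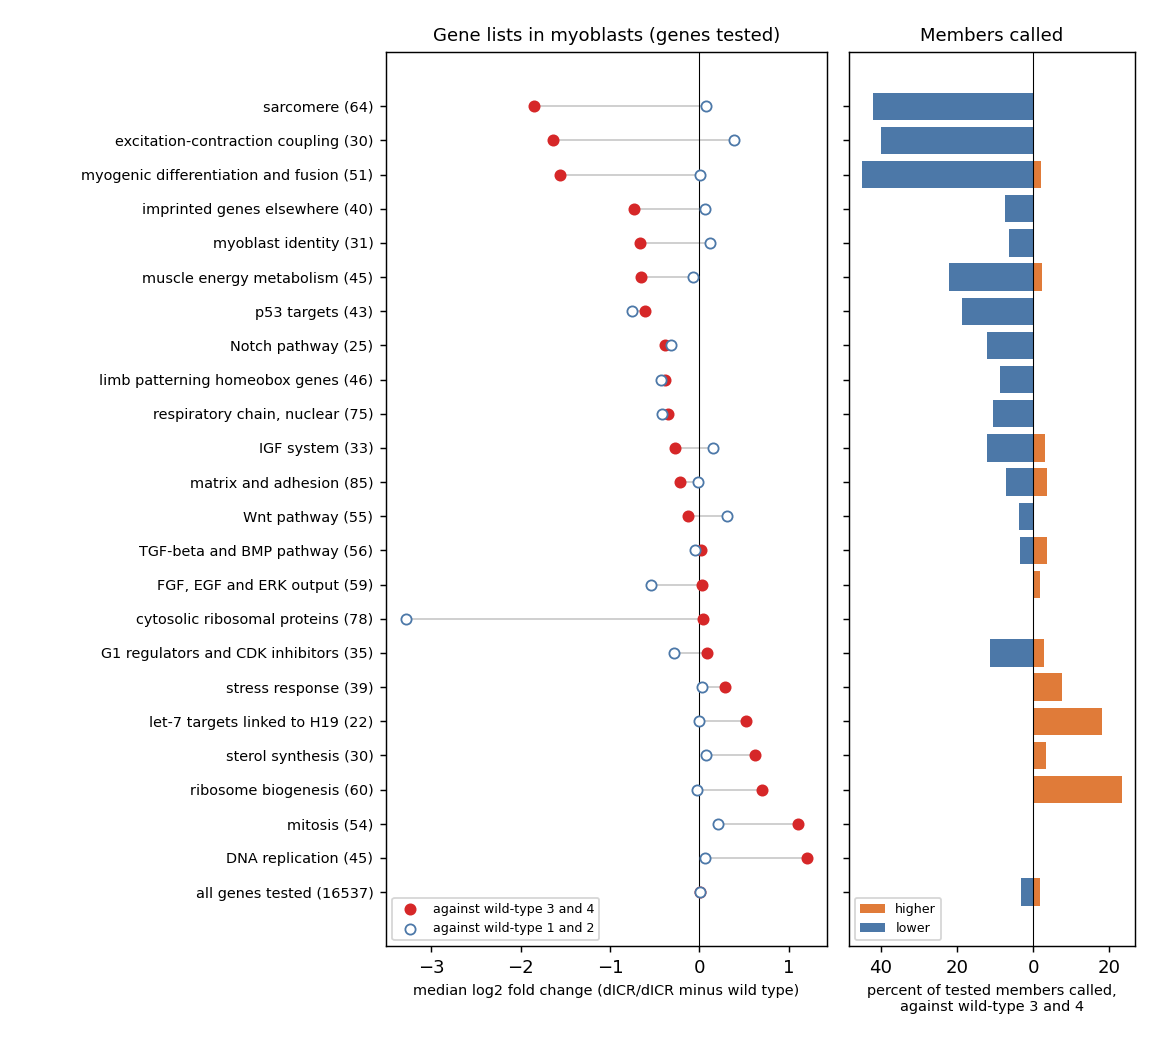
Left, median log2 fold change of the tested members of each gene list in dICR/dICR myoblasts against wild-type myoblasts 3 and 4 (filled points) and 1 and 2 (open points); right, percent of members called lower (leftward bars) and higher (rightward bars) against wild-type myoblasts 3 and 4. Sarcomere (median -1.85), excitation-contraction coupling (-1.63) and differentiation genes (-1.56) lie lowest against the low-count pair and at 0.07, 0.38 and 0.01 against the high-count pair; ribosomal protein genes lie at 0.04 and -3.28.

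Genes of the IGF system, the pathway that Igf2 feeds, moved in both directions. Against the low-count pair 4 of 33 were lower and 1 higher (median -0.27), where 3.31% and 1.94% of all genes were. Against the high-count pair 4 were lower and 4 higher (median 0.15), where 8.75% and 5.51% of all genes were. None was called against the low-count pair with wild-type myoblast 3 or 4 or dICR/dICR myoblast 2 left out, and 1 was lower with dICR/dICR myoblast 1 left out. Igfbp4, a binding protein that holds IGFs, had 0.410 and 0.622 CPM in the high-count pair, 13.9 and 16.1 CPM in the low-count pair and 0.469 and 0.782 CPM in dICR/dICR myoblasts, so its change of -4.62 ± 0.96 was against the low-count pair and it differed by 0.23 from the high-count pair (adjusted p = 0.9). Igfbp3, another binding protein, and Htra3, a secreted protease, changed by -1.35 ± 0.35 and -2.84 ± 0.59 against the low-count pair and differed by 0.18 and 0.10 from the high-count pair, where neither was called. Pik3r3, a regulatory subunit of phosphoinositide 3-kinase, had 56.99 and 44.8 CPM, 72.4 and 65.0 CPM, and 35.6 and 18.4 CPM (-1.34 ± 0.32, adjusted p = 0.0372) and was below every wild-type library. Igf2bp1, which binds Igf2 mRNA, had 74.1 and 74.0 CPM, 37.1 and 46.3 CPM, and 130 and 123 CPM, above every wild-type library (1.60 ± 0.33, adjusted p = 0.0211).

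Igf2bp1 also belongs to a list of 22 targets of the microRNA let-7, which H19 can bind. Of these 4 were higher and 0 lower against the low-count pair (median 0.52), where 1.94% of all genes were higher. Against the high-count pair 2 were higher and 3 lower (median -0.01), where 5.51% and 8.75% of all genes were. The 4 calls became 0 when wild-type myoblast 3 or 4 or either dICR/dICR myoblast was left out and 2 when wild-type myoblast 1 or 2 was, and with library size alone 2 were higher and 1 lower. Hmga2, a chromatin protein of growing cells, had 838 and 774 CPM in the high-count pair, 87.1 and 79.7 CPM in the low-count pair and 246 and 213 CPM in dICR/dICR myoblasts. It was called higher against the low-count pair (1.46 ± 0.27, adjusted p = 0.0128) and lower against the high-count pair (-1.81, adjusted p = 0.00075). Hmga1, a related chromatin protein, rose by 2.54 ± 0.63 against the low-count pair and differed by 0.30 from the high-count pair (adjusted p = 0.764).

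Calls in the signalling pathways are to be read against the 5.25% of all genes called against the low-count pair. In the TGF-beta and BMP pathway 2 of 56 genes were higher, among them the signal transducer Smad2 (0.92 ± 0.24), and 2 lower against the low-count pair, the BMP antagonists Chrd (-2.46 ± 0.47) and Nbl1 (-1.56 ± 0.30), with a median of 0.02. Smad2 had 98.6 and 97.0 CPM in the high-count pair, 86.2 and 81.2 CPM in the low-count pair and 140 and 176 CPM in dICR/dICR myoblasts. In the Notch pathway 3 of 25 were lower: Hes6, a repressor that favours myogenic differentiation (-2.19 ± 0.43), the ligand gene Dll1 (-1.31 ± 0.25) and Numbl, an inhibitor of the pathway (-1.25 ± 0.30). Hes6 had 246 and 253 CPM, 645 and 557 CPM, and 154 and 110 CPM, below every wild-type library. Of these 5 lower genes none was called against the high-count pair, where Chrd and Dll1 differed by 0.40 and 0.41 and Nbl1, Hes6 and Numbl by -0.40, -0.92 and -0.49. With wild-type myoblast 3 or 4 left out 0 genes of either pathway were called.

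In the Wnt pathway 2 of 55 were lower, the secreted modulator Sfrp2 (-3.83 ± 0.52) and the receptor Fzd1 (-1.73 ± 0.45). Fzd1 had 26.6, 26.6, 35.3 and 25.7 CPM in wild-type myoblasts 1 to 4 and 12.6 and 5.604 CPM in dICR/dICR myoblasts and was called lower against both pairs (adjusted p = 0.0497 and 0.0407), while Sfrp2 differed by -0.50 from the high-count pair (adjusted p = 0.531). Without wild-type myoblast 3 or dICR/dICR myoblast 2 neither was called. Of 59 genes of growth factor and ERK output 1 was called against the low-count pair, the ETS factor Etv4, higher by 1.99 ± 0.51 against the low-count pair. Its dICR/dICR values, 99.7 and 113 CPM, were below the 118 and 127 CPM of the high-count pair. With any 1 myoblast library left out 0 of the 59 were called. Of the 59, 7 were lower and 1 higher against the high-count pair (median -0.54), where 8.75% and 5.51% of all genes were.

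Matrix and adhesion genes were called in both directions, 3 higher and 6 lower of 85 against the low-count pair (median -0.21). Of all genes 1.94% were higher and 3.31% lower there. Against the high-count pair 4 were higher and 9 lower (median -0.02), where 5.51% and 8.75% of all genes were. The calls against the low-count pair became 0 with wild-type myoblast 4 or dICR/dICR myoblast 2 left out, 1 lower with wild-type myoblast 3 left out and 3 higher and 1 lower with dICR/dICR myoblast 1 left out. Thbs1, thrombospondin 1, which activates latent TGF-beta, had 1135 and 1094 CPM in the high-count pair, 1506 and 2092 CPM in the low-count pair and 245 and 134 CPM in dICR/dICR myoblasts, and changed by -3.25 ± 0.47 (adjusted p = 0.00569) and -2.55 (adjusted p = 0.00285). Cdh11, a cadherin of mesenchymal cells, had 16.9 and 14.7 CPM, 51.1 and 37.8 CPM, and 3.36 and 2.61 CPM (-3.88 ± 0.64 and -2.39). Both lay below all wild-type libraries. The integrin gene Itgb7 stood at 3.99 and 25.3 CPM against 0.613 to 2.99 CPM in wild type (4.05 ± 0.85), and Col8a1, a short-chain collagen, at 86.2 and 106 CPM against 72.8 and 76.1 CPM in the high-count pair and 5.80 and 6.59 CPM in the low-count pair (3.96 ± 0.67).

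Of 39 stress response genes 3 were higher and 0 lower against the low-count pair (median 0.29), and 0 were called with wild-type myoblast 3 or 4 or dICR/dICR myoblast 2 left out. The numbers against the high-count pair were 3 higher and 8 lower. Of all genes 1.94% were called higher against the low-count pair, and 5.51% higher and 8.75% lower against the high-count pair. Slc7a11, the cystine transporter that supplies glutathione synthesis, had 19.9 and 18.5 CPM in the high-count pair, 17.0 and 14.6 CPM in the low-count pair and 91.1 and 163 CPM in dICR/dICR myoblasts. The wild-type pairs agreed closely for this gene, and the rise was 3.01 ± 0.66 (adjusted p = 0.0263) and 2.73 against the high-count pair (adjusted p = 0.0151). Shmt2, a mitochondrial enzyme of one-carbon metabolism, had 163 and 166 CPM, 76.1 and 78.9 CPM, and 213 and 261 CPM (1.61 ± 0.33). Srxn1, which repairs oxidised peroxiredoxins, rose by 1.495 ± 0.29 against the low-count pair and differed by -0.23 from the high-count pair. Of 37 cytokines, chemokines and their receptors 1 was called, the receptor gene Il4ra (1.65 ± 0.30, adjusted p = 0.0124). Of 40 interferon response genes 0 were called in edgeR against the low-count pair, and 0 had an unadjusted p under 0.05 (median 0.36).

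Homeobox genes of limb patterning were lower in 4 of 46 cases and higher in 0 against the low-count pair (median -0.38). Of all genes 3.31% were lower there. Against the high-count pair 6 were lower and 1 higher, where 8.75% and 5.51% of all genes were. With wild-type myoblast 3 or 4 or dICR/dICR myoblast 2 left out 0 were called against the low-count pair. Besides Hoxb2 these included Hoxd8, with 2.01 and 1.87 CPM in the high-count pair, 6.66 and 6.43 CPM in the low-count pair and 0.313 and 0.261 CPM in dICR/dICR myoblasts (-4.47 ± 0.80, adjusted p = 0.0123) and the T-box gene Tbx15 (-1.41 ± 0.36). Of 40 tested imprinted genes outside distal chromosome 7, 3 were lower and 0 higher (median -0.73, against 0.06 for the high-count pair): Magel2, Asb4 and Ddc. Asb4, a subunit of ubiquitin ligases, had 2.50 and 2.10 CPM, 16.04 and 12.6 CPM, and 1.72 and 0.912 CPM (-3.40 ± 0.50, adjusted p = 0.00586). Magel2 and Ddc changed by -3.54 ± 0.88 and -1.32 ± 0.24. Against the high-count pair Ddc was called higher (0.78, adjusted p = 0.0438). Asb4 and Magel2 were not called there (-0.77 and -1.44, adjusted p = 0.305 and 0.294). Of the 40 genes 2 were higher and 0 lower against that pair, where 5.51% and 8.75% of all genes were. The 3 calls became 0 without wild-type myoblast 3 or dICR/dICR myoblast 2 and 1 without wild-type myoblast 4, and in the 4 low-count libraries alone 15 of 34 tested were lower and 1 higher.

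The label of the cells was checked against markers. The 6 myoblast markers, Pax7, Myf5, Myod1, Cdh15, Des and Itga7, had counts in all 6 libraries and summed to 1690 and 1963 CPM in the high-count pair, 3142 and 3403 CPM in the low-count pair and 1844 and 1797 CPM in dICR/dICR. All 6 had a negative difference from the low-count pair (median -0.85), 3 with an unadjusted p under 0.05 in edgeR and none called. None was called against the high-count pair (median -0.19), and in the 4 low-count libraries alone 3 were called lower. The part of this difference in the results above was not tested. Of 31 tested genes of myoblast identity 2 were lower and 0 higher against the low-count pair, where 3.31% of all genes were lower. These were the adhesion molecule Ncam1 (-1.61 ± 0.39) and the satellite cell receptor Megf10 (-1.37 ± 0.35). Of the 31, 1 was called without dICR/dICR myoblast 1 and 0 without any 1 of the other myoblast libraries, while 13 of 26 were lower and 2 higher in the 4 low-count libraries alone. Markers of other cell types summed, in wild type and then in the dICR/dICR myoblasts, to 210 to 429 CPM against 176 and 279 CPM for fibroblasts, 98.2 to 466 CPM against 327 and 151 CPM for smooth muscle and pericytes, and 25.9 to 83.7 CPM against 38.7 and 30.6 CPM for cartilage and bone. Tendon markers summed to 46.1 to 91.8 CPM against 23.1 and 50.04 CPM, and their factor Scx was called lower (-1.56 ± 0.37, adjusted p = 0.0355).

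Adipocyte markers summed to 8.73 to 22.8 CPM in wild type against 35.6 and 91.6 CPM in dICR/dICR, but they did not move together. Of 3 tested, 2 differed upward from the low-count pair and 1 downward, from -2.12 to 8.13 log2 units, with 0 called. An unadjusted p under 0.05 in edgeR was found for 2 of the 3 there and for all 3 over all libraries. Of all genes 22.2% and 12.1% had one. Nearly all of the dICR/dICR sum was Lpl, lipoprotein lipase, at 34.3 and 88.1 CPM against 4.69 to 20.4 CPM. It did not pass the test (3.54 ± 0.95, adjusted p = 0.0542). Pparg, the master factor of fat cells, was at 0.782 and 0.782 CPM in dICR/dICR. Markers of endothelium (2.18 to 6.13 CPM against 3.91 and 3.52), macrophages and leukocytes (3.82 to 4.70 against 4.14 and 5.604), Schwann cells and nerve (2.18 to 3.68 against 2.58 and 7.56) and erythroid cells (1.54 to 2.30 against 3.21 and 2.09) were low in all libraries. In the fit to all libraries Scx was the only marker of another cell type called against the low-count pair. The smooth muscle and pericyte markers Mcam (1.29, adjusted p = 0.0364) and Myh11 (3.40, adjusted p = 0.0183) and the leukocyte marker Ptprc (0.391 CPM in each dICR/dICR library and 0 in the high-count pair, adjusted p = 0.0215) were called higher against the high-count pair, and the cartilage factor Sox9 lower (-2.15, adjusted p = 0.0258). In the 4 low-count libraries alone 2 of smooth muscle, 1 of fibroblasts and 1 of endothelium were lower, and of adipocyte markers 1 was higher and 1 lower. The part of other cell types in the results above was not tested.

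The same genotypes were compared in myotubes, whose libraries entered the same fit and its estimate of the spread, so the myoblast calls do not stand apart from them. In dICR/dICR myotubes against wild-type myotubes 1 to 3, 601 genes were called (3.63%), 299 higher (1.81%) and 302 lower (1.83%), or 389 and 190 with library size alone. Of the 524 out-of-range genes of the myoblasts 111 were called in the same direction in myotubes, 36 higher and 75 lower, which is 21.2% of the 524 and 18.5% of the 601. Of all 16537 genes tested, 3% were called in myotubes in the direction of their myoblast difference. The sign was shared by 85.5% of the out-of-range genes and by 61.8% of all genes. The number of myotube calls depended on single libraries as well, with 53 when dICR/dICR myotube 1 was left out, 2263 and 282 for wild-type myotube 2 or 3, and 252 to 274 for each of the 4 wild-type myoblasts.

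In myotubes H19 fell by 8.60 log2 units, Rprl3 fell by 10.15 and Hspb8 fell by 6.57. Hspb8 had 556, 140 and 801 CPM in wild-type myotubes 1 to 3 and 1.94 and 8.62 CPM in the dICR/dICR myotubes. Ankrd2 had 1427, 599 and 719 CPM against 12.3 and 37.1 CPM (-5.21, adjusted p = 0.000924). In both the groups were far apart. Cdkn1c (-3.22), Hoxb2 (-7.24), Cdh11 (-3.77) and Ucp2 (-2.37) were called lower in myotubes too, and Igsf5 (5.54), Sigirr (5.40), Ankrd33b (2.55), Snhg1 (1.86) and Mecom (1.58) higher. Of the 104 tested small nucleolar RNA genes 1 was called in myotubes in the direction of its myoblast difference.

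Other out-of-range genes had no like change in myotubes. Lrp2 had 6.90, 3.93 and 15.2 CPM in wild-type and 7.34 and 4.99 CPM in dICR/dICR myotubes, a difference of -0.49 that did not pass (adjusted p = 0.581). Psmc4 differed by -0.01 and Pnmal2 by -0.03 in myotubes. Pdk4 was the single gene of the 524 called in the opposite direction, with 24.1, 14.5 and 22.2 CPM in wild-type and 49.2 and 57.4 CPM in dICR/dICR myotubes, a rise of 1.39 ± 0.23 (adjusted p = 0.00947). Slc7a11 differed by 0.22 (adjusted p = 0.856), and Igf2, which was not among the 524, by 1.65 (adjusted p = 0.0925). When the genotype effects of myoblasts (against the low-count pair) and myotubes were tested against each other, 30 genes differed (0.181%).

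**Figure D5:**
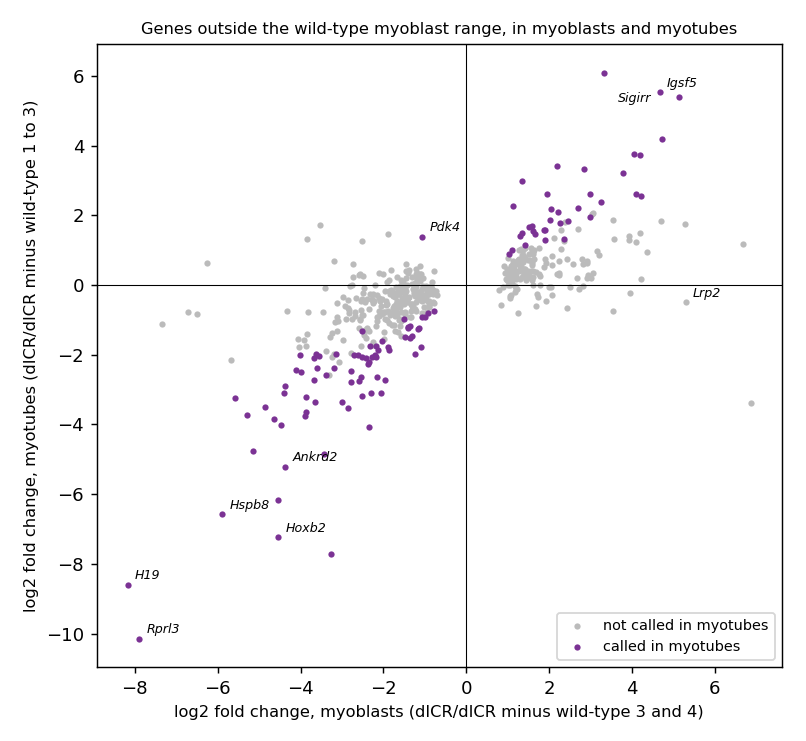
Log2 fold change of dICR/dICR against wild type in myotubes (vertical axis) plotted against that in myoblasts versus wild-type myoblasts 3 and 4 (horizontal axis), 1 point per out-of-range gene. Points called in myotubes in the same direction (111 of 524) lie in the lower left and upper right, H19 and Rprl3 at the lower left, and Pdk4 and Lrp2 off this diagonal.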

How the data were processed

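RNA-seq of 13 mouse libraries was deposited by the authors as 1 table of raw counts per gene (23366 symbols), not normalised. Per the submitters' processing notes, TopHat2, HTSeq and the mm9 assembly were used; versions, annotation and strand setting were not found in the labels. A symbol or synonym of the RefSeq tables (GRCm38.p6) matched 23207 names, and 27 names in date form were kept as deposited. Sequences come from those tables, and positions from mm9 are not given.

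Columns were matched to samples by title. In R 4.3.3, edgeR 4.0.16 kept 16537 genes (filterByExpr by group, minimum count 10, minimum total 15), scaled libraries by TMM and fitted quasi-likelihood models to all 13 libraries. The first model had 4 group means (9 residual degrees of freedom). The second had 6 means, with each wild-type group divided at 20 M total counts (7 residual degrees of freedom), and gave the values against each wild-type pair and in myotubes. Tests were two-sided, and a Benjamini-Hochberg adjusted p under 0.05 over all genes was a call. CPM are TMM-scaled. Ratios for genes with few counts have exact 95% intervals of the counts. The fit was also run on simulated counts, with the same spread set for every gene and no difference between the wild-type pairs. The libraries here differ from that setting, so that run does not show how reliable the calls are. No replicates held identical counts; chi-square per degree of freedom was 4.67 between wild-type myoblasts 3 and 4, 39.8 between 1 and 2, and 34.3 between the dICR/dICR myoblasts.

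Genes were named by rule: those called over all libraries; the 14 higher and 14 lower out-of-range genes with the largest changes and at least 5 CPM in the higher group; genes of the distal chromosome 7 domains; and up to 5 called members, or the 3 largest differences, per list. Some genes that this rule takes are not reported here. Others are said to be chosen after their values were seen. The members and the gene lists were chosen with earlier results of these data known. Alternatives were library size scaling, DESeq2 1.42.0, limma 3.58.1 voom, no filter, fewer libraries, a depth term, a replicate block and leaving out each library.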

Additional observations from a re-analysis of the deposited data

Results flagged for a closer look

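For 10 named genes the genotype effect in myoblasts (against wild-type myoblasts 3 and 4) differed from that in myotubes (against wild-type myotubes 1 to 3) by edgeR's test of the difference, with a Benjamini-Hochberg adjusted p under 0.05 over all genes. The differences, myoblast effect minus myotube effect in log2 units, were 5.79 for Lrp2 and 4.46 for BC002163. They were -5.20 for Actn3, -5.14 for Sfrp2, -2.79 for Pnmal2, -2.62 for Pgam2, -2.45 for Pdk4, -2.36 for Tnni2, -2.19 for Psmc4 and -1.98 for Sulf1. In Sfrp2 the effects had opposite signs, -3.83 and 1.31, and the myotube effect did not pass the test on its own. In Actn3 and Pdk4 both effects passed and were opposite. For Actn3 this held only against wild-type myoblasts 3 and 4. Against wild-type myoblasts 1 and 2 it was called higher, the sign of its myotube effect. Pdk4 was lower against both pairs. The difference from the myotube effect was not tested with wild-type myoblasts 1 and 2. For BC002163 both effects were negative and the myotube effect was the larger one, -7.72 against -3.26.

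Fzd1 had 1 library apart from the others: wild-type myoblast 3 stood at 35.3 CPM and the other wild-type myoblasts at 25.7 to 26.6 CPM, a gap of 0.908 of the range. The limit used for groups of 4 is one that chance passes in about 1 of 20 groups.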

How the results depend on the processing

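Counts of calls moved with the processing. Over all libraries, the 5 calls became 464 with DESeq2, 9 with limma voom, 1 with no filter on low counts and 333 when the depth set was a term. They became 0 with only the 6 myoblast libraries (2145 genes with an unadjusted p under 0.05 in edgeR) and 0 with the replicate block (3285). The labels do not say whether numbers 1 and 2 of both genotypes belong together. Their deviations within pairs correlated at 0.0612 across genes, a single value that cannot decide this. Against wild-type myoblasts 3 and 4, whose numbers the dICR/dICR libraries do not share, no paired analysis was possible. There the count of 868 was 1977 with DESeq2 (985 higher, 992 lower), 365 with voom, 4278 with only the 6 myoblast libraries and 2934 with only the 4 low-count ones. Against wild-type myoblasts 1 and 2 it was 4696 with only the 6 myoblast libraries, and in DESeq2 1379 were higher and 1434 lower. In myotubes it was 1556 with DESeq2, 1355 with voom and 1053 with no filter. The out-of-range count was 1064 with DESeq2 (506 higher, 558 lower), 237 with voom and 2136 with only the 6 myoblast libraries. With each library left out in turn, calls ran from 0 to 6 over all libraries, 28 to 1658 against wild-type myoblasts 3 and 4, 949 to 3114 against 1 and 2, 53 to 2263 in myotubes and 22 to 903 for out-of-range genes. Library size in place of TMM shifted the median of all genes by 0.145 over all libraries, 0.0233 against wild-type myoblasts 3 and 4, 0.268 against 1 and 2 and 0.201 in myotubes.

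Of 120 named genes called against wild-type myoblasts 3 and 4, all 120 kept their direction in the 19 alternatives. They were chosen by their calls in this same contrast, so the kept direction is no separate evidence. Still called were 120 with DESeq2, 111 with library size, 76 with voom, 23 and 26 without wild-type myoblast 3 or 4, and 68 and 27 without dICR/dICR myoblast 1 or 2. Igf2 had -1.17 when dICR/dICR myoblast 1 was left out and the opposite sign, 0.28, when dICR/dICR myoblast 2 was. The cause of these moves was not tested. With 5.55 to 10.91 M counts in 4 of the 6 libraries, 3 counts correspond to 0.235 to 0.460 CPM there, and differences below that level were not detectable at this depth.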
